A study of Mus musculus with 12 samples.

Results

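The genes described are the mitochondrial ribosomal protein genes of the mouse, taken as every row of the count table whose symbol starts with Mrpl or Mrps followed by a number. This gave 76 of 23337 rows, 47 with an Mrpl symbol and 29 with an Mrps symbol. All 76 had counts and passed the filter on low counts, among 12406 rows tested. By the known composition of the mitochondrial ribosome, 30 encode proteins of the large subunit with a bacterial counterpart, 19 large-subunit proteins specific to mitochondria, 16 small-subunit proteins with a bacterial counterpart and 10 small-subunit proteins specific to mitochondria. Mrps18a and Mrps30 carry a small-subunit name but belong to the large subunit. Mrps36, the remaining row, encodes a protein of the 2-oxoglutarate dehydrogenase complex and not of the ribosome.

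The mitochondrial ribosome translates the few proteins that mitochondrial DNA encodes, all of them core parts of the respiratory chain and of ATP synthase. Its RNAs come from mitochondrial DNA, whereas every one of its proteins is made from a nuclear gene, translated in the cytoplasm and imported. Transcription of these nuclear genes is known to involve nuclear respiratory factor 1 (Nrf1), the ETS-family factor GABP and Yy1, with coactivators of the PGC-1 family, and growth-linked factors such as Myc. The requirement for mitochondrial translation differs between growing and resting cells and between tissues.

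The cells were NU1, a line of normal mouse urothelial cells, the lining cells of the bladder, that became immortal by passaging without an added oncogene. A total of 12 RNA sequencing libraries made up 4 groups of 3. Proliferating control cells carried the hairpin shNT and were labelled wild type. Proliferating knockdown cells carried the hairpin sh4 against Stag2, a subunit of the cohesin complex that holds and folds chromosomes. Quiescent control and quiescent knockdown cells carried the same hairpins, were grown to confluence and were then given rosiglitazone at 1 µM, an activator of the nuclear receptor PPAR gamma, with erlotinib at 0.5 µM, an inhibitor of the EGF receptor kinase, and were labelled day 7. Control and knockdown cells within a state thus had the same medium and drugs. There was 1 cell line and 1 hairpin per arm, and confluence, both drugs and time came together in the quiescent groups. Each of experiments 5, 7 and 9 gave 1 library to every group, and the labels give each experiment a batch number of its own. The labels do not say how far the cultures of an experiment were grown apart, so p-values measure the spread between these libraries. In bulk RNA, fewer cells with an mRNA and less of that mRNA per cell cannot be told apart.

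Start-site sequences are shown for 5 genes on which the results below turn: Mrpl3 and Mrps9, lower in quiescent cells of both kinds, Mrps27, lower in quiescent control cells, and Mrpl12 and Mrpl34, the lowest against control in quiescent knockdown cells. Each line holds the 120 bases before the RefSeq start site, build GRCm38.p6, in the direction of transcription, with the ETS motif CCGGAAG or its reverse complement CTTCCGG in capitals where present.
Mrpl3 (chr9:105053148-105053267, + strand): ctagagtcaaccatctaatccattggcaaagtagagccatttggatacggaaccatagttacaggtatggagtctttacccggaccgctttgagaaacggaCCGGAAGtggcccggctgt
Mrps27 (chr13:99344666-99344785, + strand): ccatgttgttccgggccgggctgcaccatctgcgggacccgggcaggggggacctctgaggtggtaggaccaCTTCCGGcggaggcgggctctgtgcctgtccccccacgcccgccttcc
Mrps9 (chr1:42851113-42851232, + strand): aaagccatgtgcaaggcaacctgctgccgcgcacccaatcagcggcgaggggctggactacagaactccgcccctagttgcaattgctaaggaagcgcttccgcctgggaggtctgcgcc
Mrpl12 (chr11:120484517-120484636, + strand): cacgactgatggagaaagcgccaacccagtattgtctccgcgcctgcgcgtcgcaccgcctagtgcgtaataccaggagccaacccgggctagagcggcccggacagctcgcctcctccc
Mrpl34 (chr8:71464806-71464925, + strand): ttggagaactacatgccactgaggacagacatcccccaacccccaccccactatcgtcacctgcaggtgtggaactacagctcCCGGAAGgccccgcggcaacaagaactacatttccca
The motif lay 19 bases before the RefSeq start in Mrpl3, 48 bases in Mrps27, on the reverse strand, and 37 bases in Mrpl34. The GENCODE M21 annotation, used below for exons, starts Mrpl3 at 105053239 and Mrpl12 at 120484613, inside the stretches shown. These stretches of Mrps9 and Mrpl12 held none of the 5 motifs searched.

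RefSeq start-site windows, from 250 bases before to 50 after the start, were matched for 67 of the 76 genes and numbered 73. The ETS motif, searched on both strands like all others, stood in 24 windows (32.9%), against 8.86% of all 32851 windows and 17.2% of the 11414 windows of tested genes. The Yy1 motif ATGGCGG stood in 13 windows (17.8%), among them those of Mrps2, Mrps5, Mrps27, Mrps30 and Mrpl50, against 4.05% and 7.76%. The Nrf1 motif GCATGCG stood in 8 windows (11%), among them those of Mrpl10, Mrpl32, Mrpl33 and Mrps18b, against 3.58% and 6.19%. The E-box CACGTG, the letters to which Myc and other factors bind, stood in 7 windows of 5 genes (9.59%), against 7.15% and 9.93%, and the TATA letters TATAAA in 5 windows (6.85%), against 13.6% and 6.97%. Median GC content was 58.3% in the 73 windows, 52.7% in all windows and 61% in those of tested genes. None of these motifs lies within another. They are matches of letters, given as a description.

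Library totals ran from 14524429 to 21987539 counts, and the 76 genes took 0.239% to 0.352% of them. Stag2 was at 113 to 145 CPM (counts scaled to a common library total, corrected by TMM) in proliferating control and 24.6 to 33.3 CPM in proliferating knockdown, and at 107 to 128 CPM in quiescent control and 9.43 to 15.3 CPM in quiescent knockdown. The groups did not overlap in either state, in the direction of the labels. Of 15 urothelial markers, 11 reached a mean of 1 CPM, among them keratins, E-cadherin and the uroplakin Upk1a. The basal keratin Krt5 was among them too, at 0.41 to 6.60 CPM in single libraries. Trp63, another basal marker, was at 0, and the uroplakins Upk1b, Upk2 and Upk3a did not reach that mean. Of 8 fibroblast markers only Twist1 reached a mean of 1 CPM, and Col1a2, Col3a1 and Lum were at 0. No endothelial, smooth muscle, melanocyte or nerve marker reached that mean. In proliferating control of experiment 9 the fibroblast marker Pdgfra was at 2.045 CPM and the melanocyte marker Mitf at 1.59 CPM, their highest values. Of 7 immune markers in the table, Csf1r and Cd68 reached a mean of 1 CPM, Ptprc was near 0, and Cd3e was at 0. The immune list summed to 15.6 to 33.3 CPM in proliferating control, 26.3 to 55.4 CPM in proliferating knockdown, 39.7 to 61.9 CPM in quiescent control and 110 to 170 CPM in quiescent knockdown, most of it Csf1r. Its part in the results below was not tested.

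Summed over the 76 genes, the level was 2684, 3004 and 3594 CPM in proliferating control of experiments 5, 7 and 9, and 2633, 3152 and 3135 CPM in proliferating knockdown. It was 2393, 2695 and 2858 CPM in quiescent control and 2926, 2587 and 2556 CPM in quiescent knockdown. The group means were 3094 ± 461, 2974 ± 295, 2649 ± 236 and 2690 ± 206 CPM (SD, n = 3), and the ranges of all 4 groups overlapped. Experiment 5 had the lowest sum in 3 of the 4 groups and the highest in quiescent knockdown. In that last library 64 of the 76 genes lay above their group's mean, and the like share of all tested genes was not computed. Proliferating control of experiment 9 held the highest value of 43 genes (56.6%, against 17.2% of all tested genes), and quiescent control of experiment 5 held the lowest value of 32 genes, where 10.3% of all tested genes had theirs.

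**Figure D1:**
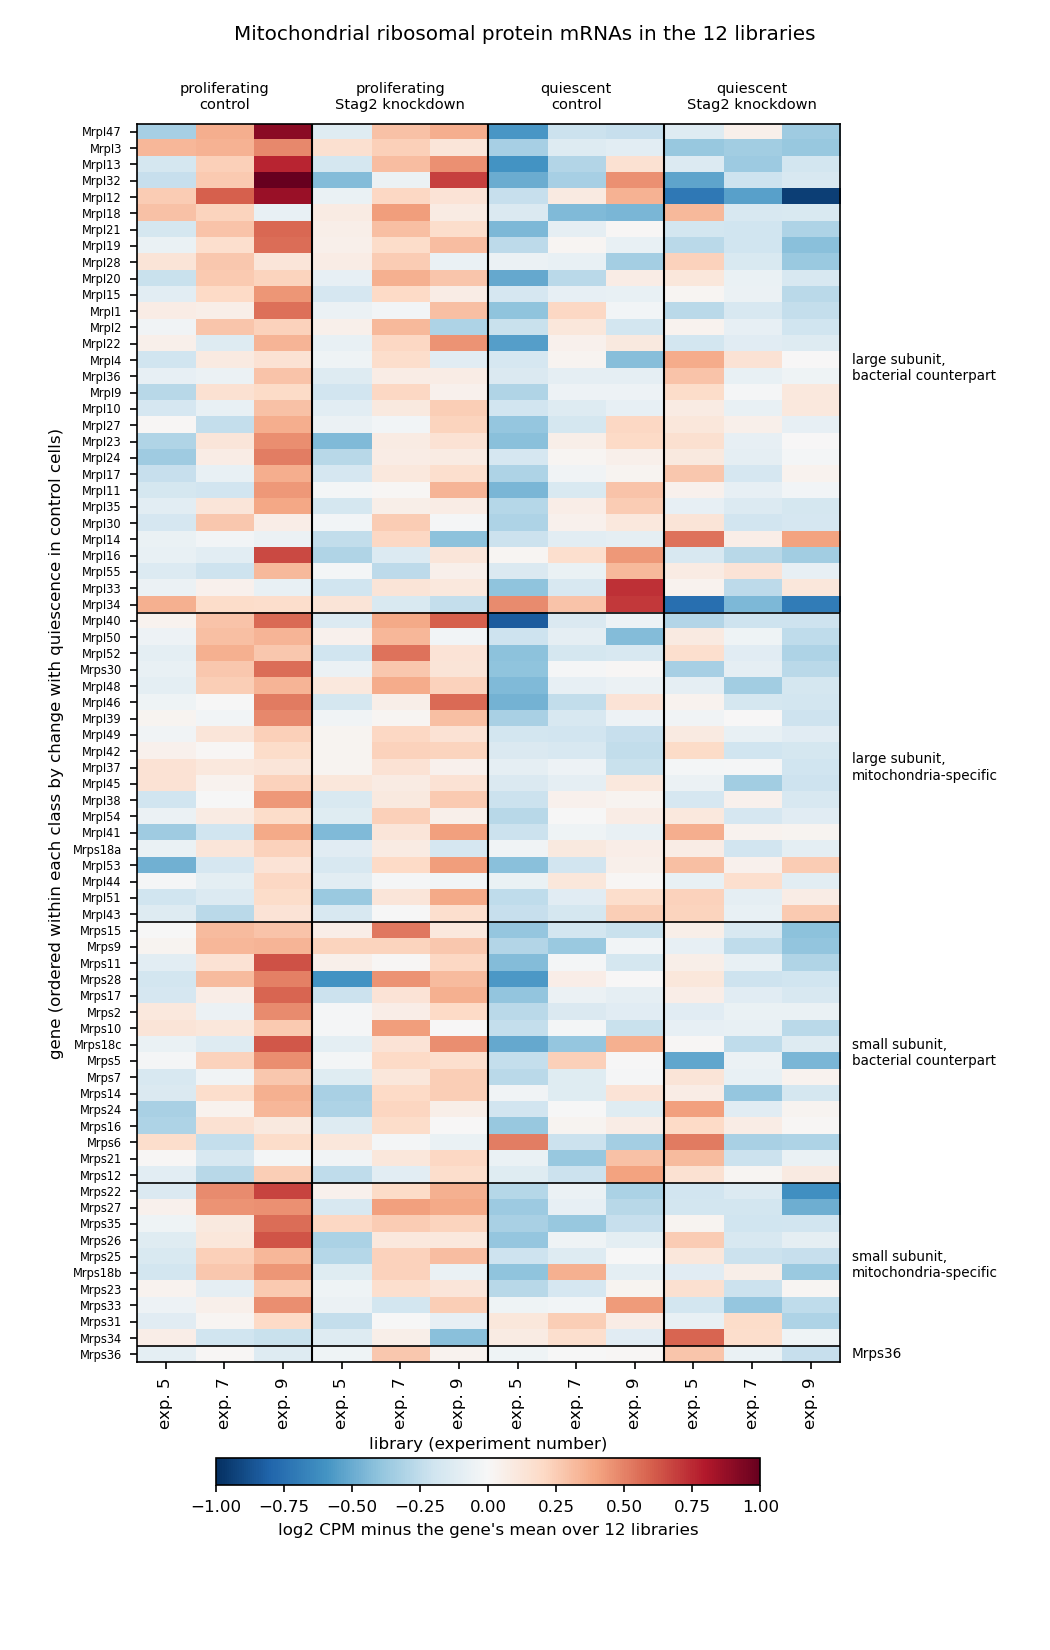
Level of each of the 76 genes (rows, by class of protein) in each of the 12 libraries (columns, by group and experiment), as log2 CPM minus the gene's mean over the libraries, with colours saturating at 1 in either direction. Rows are often reddest in proliferating control of experiment 9, where 43 genes had their highest value, and bluest in quiescent control of experiment 5, where 32 had their lowest.

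All 76 genes were found on the GENCODE M21 annotation (GRCm38), on 17 chromosomes. Divided by the length of merged exons, their mean level over the libraries ran from 3.99 to 111 CPM per kb with a median of 23.0 CPM per kb. Mrpl52 was highest at 111 CPM per kb, between 81.9 and 159 CPM per kb in single libraries, followed by Mrps21 at 72.5 CPM per kb and Mrpl33 at 63.9 CPM per kb. Mrpl52 exceeded both in every library but quiescent control of experiment 9, where Mrpl33 was at 104 CPM per kb, and the ranges of Mrps21 and Mrpl33 overlapped. The lowest were Mrps25 at 4.66, Mrpl48 at 4.08 and Mrpl47 at 3.99 CPM per kb, whose ranges overlapped. Merged exons take in every annotated transcript, so this order depends on the annotation as well as on the level. They ran from 478 bases, those of Mrpl33, to 7605 bases, with a median of 1339.5 bases. Which transcripts were expressed was not tested. Over the 12 libraries the range of log2 CPM was widest for Mrpl12 (1.80), Mrpl32 (1.57) and Mrpl47 (1.47), and narrowest for Mrpl44 (0.31), Mrpl37 (0.37) and Mrps18a (0.42). Mrpl12 forms the stalk of the large subunit, and Mrpl44 is an RNase III-like protein of the same subunit.

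Entry into quiescence was first compared in control cells. Transcripts of the mitochondrial ribosome were slightly lower in quiescent than in proliferating control cells, across both subunits, and few single genes passed the test. Mrpl3, Mrps9, Mrps27 and Mrps35 fell and none rose. Of all 12406 tested genes, 11.7% fell and 8.33% rose by the same rule (edgeR's quasi-likelihood test, adjusted p under 0.05), so the 4 of 76 were no larger a share than the background. The median log2 fold change of the 76 genes was -0.21, against 0.0047 over all tested genes. Of the 76 genes 66 were negative, against 6155 of the 12406 tested. With the experiment number as a block, which pairs the libraries of an experiment, 16 of the 76 fell and none rose, where 18.5% of all tested genes fell and 16.8% rose.

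Mrpl3, the counterpart of the bacterial protein that lies near the peptidyl transferase centre, was at 60.6, 61.3 and 67.1 CPM in proliferating control (experiments 5, 7 and 9) and at 38.1, 44.0 and 44.8 CPM in quiescent control. Every quiescent library lay below every proliferating one, a difference of -0.57 in log2 (SE 0.10, adjusted p = 0.00277 by edgeR). Mrps9, the counterpart of a bacterial protein of the small subunit's head, was at 29.9, 36.9 and 37.1 CPM and then at 24.0, 22.6 and 28.8 CPM, without overlap (-0.46 in log2, SE 0.14, edgeR adjusted p = 0.0376). Mrps27, a pentatricopeptide repeat protein found only in mitochondrial ribosomes, was at 29.1, 38.5 and 38.7 CPM and then at 22.0, 26.7 and 23.4 CPM. The groups again did not overlap, and differed by -0.56 in log2 (SE 0.18, edgeR adjusted p = 0.0491, and 0.0172 with the block). Mrps35, another protein specific to mitochondria, was at 24.1, 26.6 and 36.6 CPM and then at 19.9, 19.2 and 21.3 CPM, also without overlap (-0.53 in log2, SE 0.16, edgeR adjusted p = 0.0343). Proliferating control of experiment 9 stood above the other proliferating libraries in Mrps35, and without it the change was -0.34 (edgeR adjusted p = 0.125). The call of Mrpl3 held in every fit that left out a single library, whereas those of Mrps9, Mrps27 and Mrps35 were each lost in 5 to 10 of 12 such fits.

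The 12 further genes that fell only with the block came from both subunits. In the large subunit they were Mrpl12, Mrpl13, Mrpl18, Mrpl32 and Mrpl47 among proteins with a bacterial counterpart and Mrpl40, Mrpl49, Mrpl50 and Mrps30 among mitochondria-specific ones. In the small subunit they were Mrps2, Mrps15 and Mrps22. Mrpl47, a protein near the exit of the peptide tunnel, had the most negative change of all 76 (-0.73 in log2, SE 0.28, edgeR adjusted p = 0.0873, and 0.0350 with the block), at 10.3, 16.6 and 24.1 CPM in proliferating and 8.62, 11.1 and 11.0 CPM in quiescent control. Its groups overlapped, because experiment 5 was lowest in both states. Mrpl40 followed at -0.61 (SE 0.23, edgeR adjusted p = 0.0844, and 0.00721 with the block) and Mrps22, whose loss causes a mitochondrial disease in humans, at -0.59 (SE 0.21, edgeR adjusted p = 0.0710, and 0.0443 with the block). Mrpl32, which a protease of the inner membrane cleaves before it joins the ribosome, differed more between experiments than between states, at 16.7, 23.4 and 40.6 CPM and then at 13.9, 15.6 and 26.9 CPM. It differed by -0.52 in log2 (SE 0.37, edgeR adjusted p = 0.350, and 0.0494 with the block).

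At the other end stood Mrpl34, Mrpl33, Mrps34, Mrps31, Mrps12, Mrps36, Mrpl55 and Mrpl43, with log2 fold changes between 0.26 and 0.04, none past the threshold. Mrpl33 was at 28.8, 30.9 and 28.5 CPM in proliferating and 22.7, 26.9 and 49.7 CPM in quiescent control, so its positive value came from experiment 9 alone. The medians by class were -0.18 for large-subunit proteins with a bacterial counterpart, -0.24 for the mitochondria-specific ones, -0.27 for small-subunit proteins with a bacterial counterpart and -0.24 for the specific ones. The classes did not part from each other by more than the range within each, which in the first class ran from -0.73 to 0.26. In CPM, 18 of the 76 genes (23.7%) had all quiescent libraries below all proliferating ones and none the reverse, against 18.5% and 17.1% of all tested genes.

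**Figure D2:**
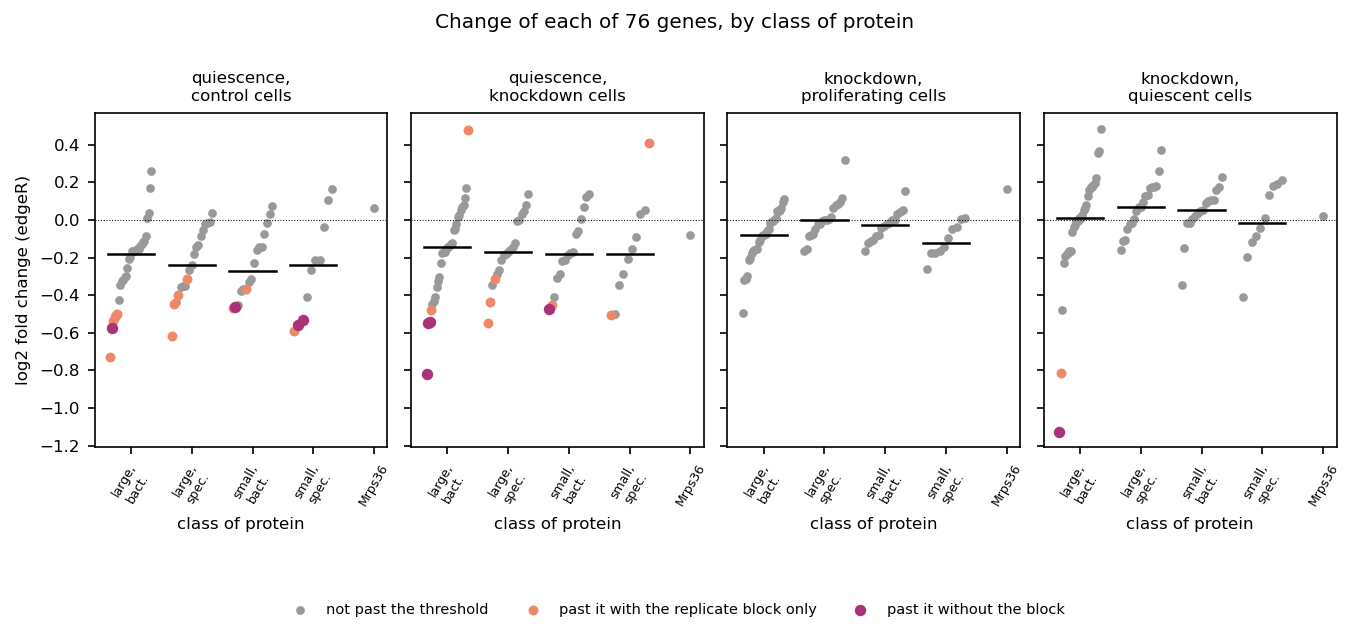
Log2 fold change of each of the 76 genes (points, edgeR) in the 4 comparisons, by class of protein, with a line at the median of the class; colours mark genes past an adjusted p of 0.05 without the block, with it only, or in neither fit. In control cells 66 of the 76 points lie below 0 with quiescence, while in the knockdown comparisons the points centre near 0 and Mrpl34 lies lowest in quiescent cells at -1.13.

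In knockdown cells the comparison of states again found few genes past the threshold, and the shift was uneven between experiments. Mrpl12, Mrpl34, Mrpl3 and Mrps9 fell and none rose, where 10.8% of all tested genes fell and 7.59% rose. With the block 10 fell, among 17.2% of all tested genes, and Mrpl14 and Mrps34 rose, among 15.9%. The median log2 fold change was -0.17, and 56 of the 76 genes were negative, against 6147 of the 12406 tested. In CPM, 20 of the 76 genes (26.3%) had all quiescent libraries below all proliferating ones and none the reverse. Over all tested genes these shares were 19.1% and 18.1%. Mrpl3 and Mrps9 were called in both control and knockdown cells. The comparisons share no library, and the difference between them is the interaction described below.

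Mrpl12 is the protein of the flexible stalk that recruits translation factors, and it also binds mitochondrial RNA polymerase. It was at 58.3, 70.8 and 67.1 CPM in proliferating knockdown cells and at 37.2, 42.0 and 31.8 CPM in quiescent ones, with no overlap (-0.82 in log2, SE 0.19, edgeR adjusted p = 0.0116). In control cells it was at 73.1, 92.7 and 111 CPM when proliferating and at 52.0, 65.1 and 77.9 CPM when quiescent, which overlap and differ by -0.50 in log2 (SE 0.18, edgeR adjusted p = 0.0762, and 0.0242 with the block). Within the 3 experiments the control cells' difference was -0.49, -0.51 and -0.51. Mrpl34, a small basic protein of the large subunit, was at 28.7, 23.6 and 22.3 CPM and then at 15.6, 19.2 and 16.2 CPM in knockdown cells, with no overlap (-0.55 in log2, SE 0.15, edgeR adjusted p = 0.0296). In control cells Mrpl34 was the most positive of the 76, at 33.6, 29.8 and 29.7 CPM and then 36.4, 32.0 and 42.9 CPM, with groups that overlapped (0.26, SE 0.15, edgeR adjusted p = 0.248). Mrpl3 was at 53.9, 56.8 and 52.3 CPM and then at 37.0, 37.7 and 37.0 CPM, nearly the same in the 3 quiescent libraries (-0.54 in log2, SE 0.10, edgeR adjusted p = 0.00420). Mrps9 was at 34.3, 34.2 and 35.4 CPM and then at 27.8, 24.6 and 22.3 CPM, without overlap (-0.48, SE 0.14, edgeR adjusted p = 0.0353). When single libraries were left out, the knockdown cells' call of Mrpl3 held in all 12 fits, that of Mrpl12 was lost in 1 (edgeR adjusted p = 0.0575), that of Mrpl34 in 4 (0.104 at most) and that of Mrps9 in 6 (0.139 at most).

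The further genes that fell in knockdown cells only with the block were Mrpl19, Mrpl40, Mrpl45, Mrpl48, Mrps5 and Mrps27. Mrpl45 ties the ribosome to the inner membrane, and it differed by -0.31 in log2 (SE 0.11, edgeR adjusted p = 0.0704, and 0.0300 with the block). Mrpl14, at the face where the subunits meet, was at 26.7, 36.7 and 24.0 CPM in proliferating and 46.3, 33.3 and 42.1 CPM in quiescent knockdown cells. Experiments 5 and 9 were higher when quiescent and experiment 7 was lower, so the groups overlapped (0.48 in log2, SE 0.17, edgeR adjusted p = 0.0694, and 0.0496 with the block). Mrps34, a mitochondria-specific protein of the small subunit, was at 37.2, 42.5 and 30.5 CPM and then at 60.9, 45.9 and 39.4 CPM, higher within each experiment although the groups overlapped (0.41, SE 0.18, edgeR adjusted p = 0.133, and 0.0383 with the block). In annotated transcripts 34.2% of the 50-base stretches of Mrps34 also belong to its neighbour Nme3. Mrpl4, Mrps12, Mrpl43, Mrps24, Mrpl55 and Mrpl23 completed the positive end with log2 fold changes of 0.17 down to 0.08, none past the threshold.

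Within single experiments the shift with quiescence differed in size, and in knockdown cells in direction. In control cells the median difference in log2 CPM of the 76 genes was -0.19, -0.13 and -0.38 in experiments 5, 7 and 9, and 46 of the 76 genes (60.5%) were lower in all 3, against 31.5% of all tested genes. In knockdown cells it was 0.16, -0.27 and -0.31, and 25 genes (32.9%) were lower in all 3, against 27.3%. In experiment 5 the genes' median deviation from their group's mean in log2 CPM was 0.11 in quiescent knockdown and -0.15 in proliferating knockdown. Without quiescent knockdown of experiment 5 and with the block, 25 of the 76 genes fell in control cells, where 21.2% of all tested genes fell in the same fit, and 26 in knockdown cells, where 18.6% did. That fit was chosen after seeing the data. Without proliferating control of experiment 9, the median in control cells was -0.11 and 1 gene fell, against 8.05% of all tested genes. Without proliferating control of experiment 5 it was -0.32 and 14 fell, against 13.8%.

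**Figure D3:**
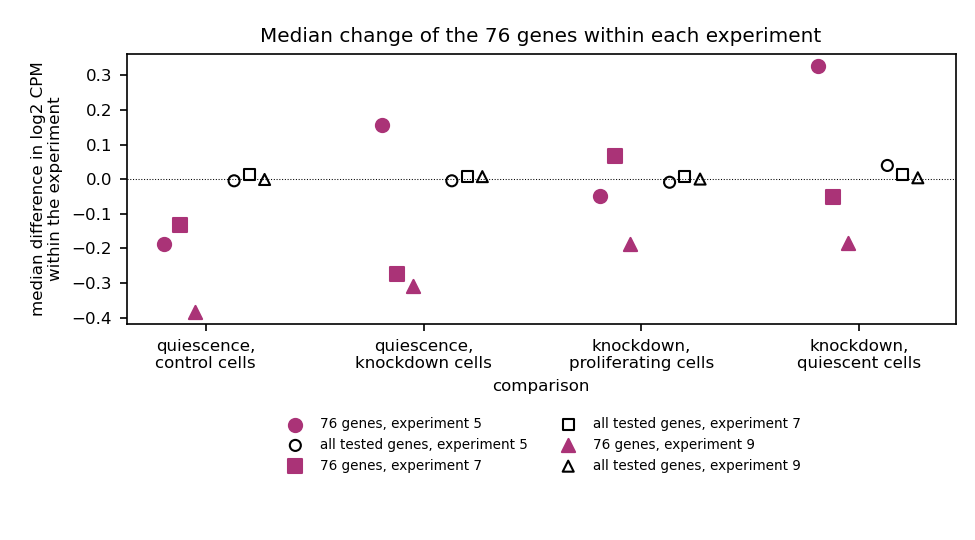
Median difference in log2 CPM of the 76 genes (filled) and of all tested genes (open) within experiments 5, 7 and 9, for the 4 comparisons. The 76 genes lie below 0 in all 3 experiments for quiescence in control cells (-0.19, -0.13 and -0.38) and on both sides of 0 in the other comparisons, while all tested genes stay between -0.01 and 0.04.

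Knockdown of Stag2 in proliferating cells left no gene of the 76 past the threshold. Over all tested genes 3 fell (0.0242%) and none rose by edgeR's quasi-likelihood test, and the count of the 76 was also 0 with the block and by the DESeq2 Wald test. At an unadjusted p under 0.05 there was 1 of the 76, Mrpl12, and 228 of 12406. The median log2 fold change was -0.04, and -0.05, 0.07 and -0.19 in experiments 5, 7 and 9. Of the 76 genes 52 were negative, against 6263 of the 12406 tested. The sign of the median turned without proliferating control of experiment 9 (0.06) and without proliferating knockdown of experiment 5 (0.03). Mrpl12 was lowest at -0.50 (SE 0.18, edgeR adjusted p = 0.9998), and every knockdown library lay below every control library. Mrpl34 was also lower without overlap (-0.32, SE 0.15, edgeR adjusted p = 0.9998). In all, 3 of the 76 genes (3.95%) were lower and none higher without overlap in CPM, against 2.65% and 2.66% of all tested genes. Mrpl32 had a change of the same size (-0.32, SE 0.37) but overlapping groups. Mrpl53, Mrps36 and Mrps21 were the most positive, at 0.32, 0.17 and 0.15, all with overlap.

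In quiescent cells knockdown lowered a single gene of the 76, Mrpl34, and with the block Mrpl12 as well. Of all tested genes 0.282% fell and 0.153% rose, and with the block 1.96% fell and 1.59% rose. Mrpl34 was at 36.4, 32.0 and 42.9 CPM in quiescent control and 15.6, 19.2 and 16.2 CPM in quiescent knockdown cells. The lowest control library lay well above the highest knockdown library (-1.13 in log2, SE 0.15, edgeR adjusted p = 0.0126, and 0.00668 with the block). Within experiments 5, 7 and 9 the difference was -1.22, -0.73 and -1.40. The size stayed between -1.23 and -1.01 when single libraries were left out, but the adjusted p was above the threshold in 4 of 12 such fits, those without quiescent control or quiescent knockdown of experiment 5 or of experiment 9 (0.0933 at most). Of the 76, Mrpl34 was thus about 2.19-fold lower with knockdown in quiescent cells. The gene lies on chromosome 8 from 71464959 to 71465747 (GRCm38, + strand) with 2 exons, and no annotated gene overlaps its exons.

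Mrpl12 was at 52.0, 65.1 and 77.9 CPM in quiescent control and 37.2, 42.0 and 31.8 CPM in quiescent knockdown cells. The groups did not overlap (-0.81 in log2, SE 0.19, edgeR adjusted p = 0.0964, and 0.0238 with the block, 2 of the 76 genes then being lower). Its difference was -0.48, -0.63 and -1.29 in the 3 experiments. Mrpl12 lies on chromosome 11 from 120484613 to 120489065 (GRCm38, + strand), and 15.2% of its exon bases are also covered by the antisense gene Gm16755. Mrpl16 came next (-0.48, SE 0.21, edgeR adjusted p = 0.394), at 26.7, 29.5 and 35.5 CPM and then 23.5, 21.6 and 20.6 CPM, without overlap. The most positive were Mrpl14 (0.49, SE 0.17, edgeR adjusted p = 0.262), which also did not overlap, Mrpl53 (0.37, SE 0.20) and Mrpl18 (0.37, SE 0.18). All exon bases of Mrpl53 are also covered on the same strand by the annotated gene Gm42688.

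The 76 genes together did not move one way with knockdown in quiescent cells. Their median log2 fold change was 0.04 against 0.016 over all tested genes, with 47 positive and 29 negative. Over all tested genes 6508 were positive and 5898 negative. The medians of the 76 genes within experiments 5, 7 and 9 were 0.33, -0.05 and -0.18. Here too the sign turned, without quiescent control of experiment 5 (-0.04) and without quiescent knockdown of experiment 5 (-0.016). In CPM 5 genes (6.58%) were lower and 8 (10.5%) higher without overlap, against 8.85% and 10.2% of all tested genes. Both knockdown comparisons use control libraries that also serve the comparison of states in control cells. Their knockdown libraries likewise serve the comparison of states in knockdown cells. The low values of Mrpl34 and Mrpl12 in quiescent knockdown cells thus enter both comparisons that use those libraries.

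**Figure D4:**
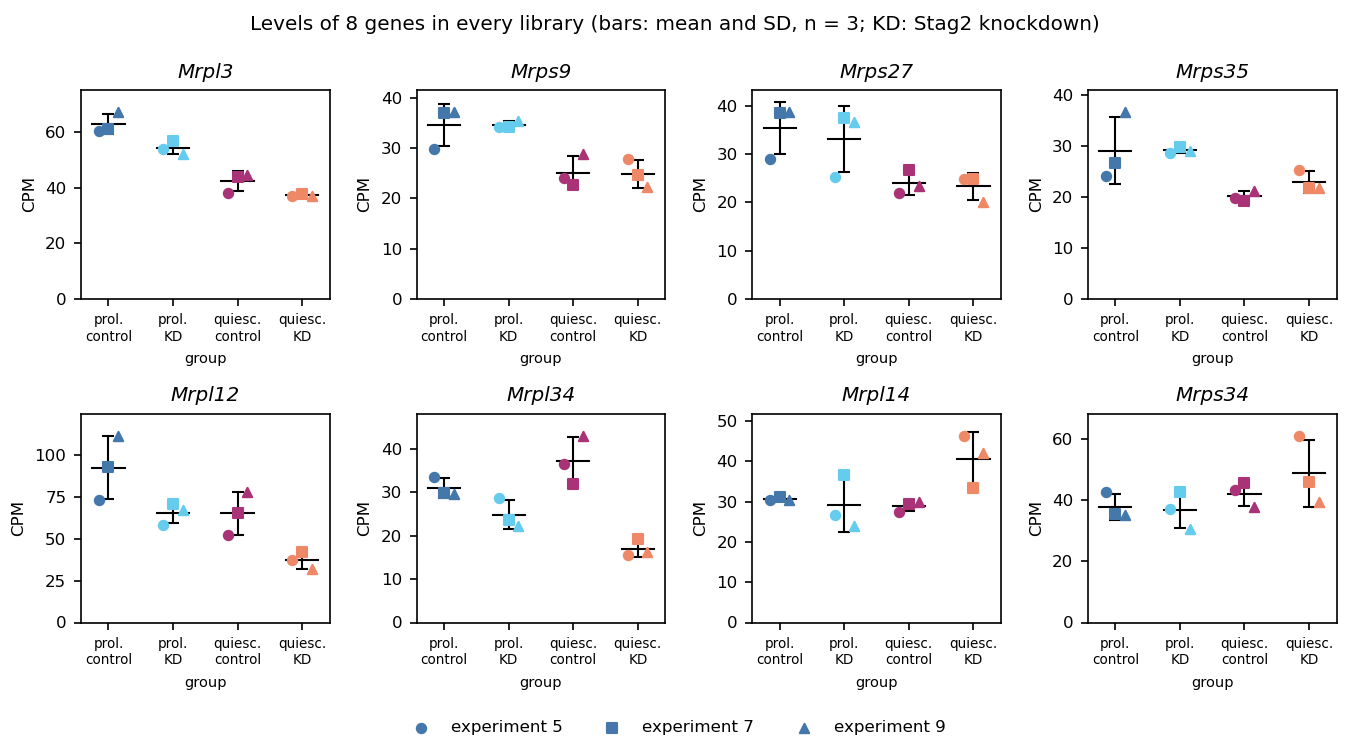
CPM of 8 of the 76 genes in every library, by group, with the mean and SD of each group (n = 3) and a symbol for each experiment. Mrpl3 and Mrps9 are lower in both quiescent groups, Mrpl34 is lowest in quiescent knockdown cells (15.6 to 19.2 CPM), Mrpl12 is also lowest there with no library above 42.0 CPM, and Mrps34 is highest in the quiescent knockdown library of experiment 5.

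The interaction, in which the proliferating cells' response to knockdown is subtracted from the quiescent cells' response, passed the threshold for none of the 76 and for none of the 12406 genes by edgeR, with or without the block, and for none of the 76 by the DESeq2 Wald test. At an unadjusted p under 0.05 there were 2 of the 76 and 219 of 12406. Mrpl34 had the most negative value (-0.81, SE 0.22, edgeR adjusted p = 0.9997, and 0.808 with the block), followed by Mrpl12 (-0.32, SE 0.26) and Mrps33 (-0.25, SE 0.26). Mrpl14 had the most positive one (0.56, SE 0.24, edgeR adjusted p = 0.9997), followed by Mrps26 (0.44, SE 0.29) and Mrpl47 (0.40, SE 0.39). A different response of Mrpl34 to knockdown in the 2 states was therefore not detectable over all genes with 3 libraries a group.

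Mrps18a, Mrps18b and Mrps18c encode 3 related proteins, of which the first belongs to the large and the others to the small subunit. Their log2 fold changes with quiescence in control cells were -0.06, -0.21 and -0.31, none past the threshold. Mrps18a stayed between 28.1 and 37.8 CPM over all 12 libraries. Mrps30, the other large-subunit protein with a small-subunit name, was at 33.0, 41.8 and 51.0 CPM in proliferating and 26.2, 34.4 and 34.9 CPM in quiescent control, and fell with the block (-0.40, SE 0.17, edgeR adjusted p = 0.130, and 0.0311 with the block). Mrps36, the protein of the 2-oxoglutarate dehydrogenase complex, was at 16.3 to 17.9 CPM in proliferating and 17.3 to 18.0 CPM in quiescent control, with a log2 fold change of 0.06 (SE 0.15).

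The remaining apparatus of mitochondrial translation was followed by lists named from known function. Of 7 ribosomal proteins without a numbered Mrp symbol, Ptcd3, a pentatricopeptide repeat protein of the small subunit, fell with quiescence in both backgrounds (-0.85, SE 0.20, edgeR adjusted p = 0.0118 in control, and -0.69, SE 0.20, adjusted p = 0.0328 in knockdown cells). It was at 53.7, 76.9 and 96.6 CPM in proliferating and 39.7, 42.8 and 43.3 CPM in quiescent control, without overlap, and the other 6 did not pass the test. Of 15 translation factors tested, only Gfm1, the elongation factor that moves the ribosome along the mRNA, fell, in both backgrounds (-0.47, SE 0.15, edgeR adjusted p = 0.0422, and -0.53, SE 0.15, adjusted p = 0.0281). Of 26 assembly and RNA modification factors, the helicase Ddx28 fell in control cells (-0.67, SE 0.16, edgeR adjusted p = 0.0131) and none passed the test in knockdown cells. Of 17 mitochondrial aminoacyl-tRNA synthetases, Nars2 (-1.09, SE 0.30), Tars2 (-0.66, SE 0.14) and Wars2 (-0.44, SE 0.13) fell in control cells, and Tars2 fell in knockdown cells (-0.63, SE 0.14, edgeR adjusted p = 0.0120). None of 7 tested genes of mitochondrial DNA transcription and replication passed the test in either background. By the same test 11.7% of all tested genes fell and 8.33% rose in control cells, and 10.8% fell and 7.59% rose in knockdown cells. Leaving out single libraries, 12 fits in all, ended the call of Gfm1 in 8 fits for control cells (edgeR adjusted p = 0.167 at most) and in 4 for knockdown cells (0.105 at most). It ended that of Ptcd3 in 1 for control (0.0517) and 5 for knockdown cells (0.123 at most), that of Nars2 in 3 (0.105 at most) and that of Tars2 in knockdown cells in 1 (0.0586), whereas the control cells' calls of Ddx28 and Tars2 held in every one. Wars2 was named after its values were seen, and its call was not followed in these fits. No gene of these 5 lists rose, and their medians with quiescence in control cells lay between -0.31 and -0.09. The block added calls in 4 of the lists, to 3 lower translation factors, 5 lower and 1 higher assembly factors, 5 lower synthetases and 1 lower gene of mitochondrial DNA in control cells, where 18.5% of all tested genes then fell and 16.8% rose.

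Among 11 tested nuclear regulators, 3 fell with quiescence in control cells and none rose, against 11.7% and 8.33% of all tested genes. The calls of Gabpa and Ppard held in every fit without a single library, and that of Nrf1 was lost in 5 of 12 (edgeR adjusted p = 0.0673 at most). Gabpa, the DNA-binding subunit of GABP, was at 58.3, 61.8 and 66.6 CPM in proliferating and 45.5, 43.9 and 41.8 CPM in quiescent control, without overlap (-0.51, SE 0.10, edgeR adjusted p = 0.00581), and it fell to a like extent in knockdown cells (-0.50, SE 0.10, adjusted p = 0.00735). Nrf1 was at 39.0, 46.4 and 47.3 CPM and then at 33.2, 31.7 and 31.2 CPM, again without overlap (-0.46, SE 0.12, edgeR adjusted p = 0.0167), with -0.34 in knockdown cells (SE 0.12, adjusted p = 0.0625, and 0.0375 with the block). Ppard, the PPAR delta receptor, fell by 1.32 on the log2 scale in control cells (SE 0.28, edgeR adjusted p = 0.00719) and by 1.56 in knockdown cells (SE 0.28, adjusted p = 0.00352). Myc was at 95.6, 175 and 234 CPM in proliferating and 49.1, 110 and 70.3 CPM in quiescent control, with overlap (-1.14, SE 0.38, edgeR adjusted p = 0.0578, and 0.00319 with the block). Ppargc1a, the coactivator PGC-1 alpha, was at most 1.19 CPM in proliferating and 1.24, 1.84 and 4.41 CPM in quiescent control (2.22, SE 1.04, edgeR adjusted p = 0.153, and 0.00170 with the block), and Ppargc1b did not exceed 1.36 CPM in any library. Pprc1, the third member of that family, had -0.56 (SE 0.29, edgeR adjusted p = 0.190, and 0.0236 with the block). Gabpb1, Esrra, Yy1 and Pparg had -0.18, -0.04, 0.23 and 0.37, none past the threshold, and Ppara was too low to be tested. With knockdown none of the 11 passed the threshold in either state, and Pparg in quiescent cells did so with the block (-1.50, SE 0.43, edgeR adjusted p = 0.175, and 0.0207 with the block, by which 1.96% of all tested genes fell).

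How reads were assigned limits some of these values, since the use of strand in counting is not given in the sources used here. On the annotation 12 of the 76 genes have at least 10% of their exon bases under an antisense gene, with Mrps18b (59.1%, Gm16279), Mrps25 (58.2%, Nr2c2), Mrpl19 (39.2%, Gcfc2), Mrpl24 (38.2%, Rrnad1) and Mrps27 (22.6%, 6430562O15Rik) among them. At least 10% of exon bases lie under another gene on the same strand in 4, among them Mrpl53 and Mrps6 (54.8%), and 12 share at least 10% of their 50-base stretches with transcripts of other genes, pseudogenes included. Of the genes called without the block, Mrpl3, Mrps9, Mrps35 and Mrpl34 are in none of these sets.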

How the data were processed

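The authors deposited raw counts, whole numbers of reads per gene symbol and library, in a table of 23337 rows. The submitters' processing notes name TopHat, Bowtie, HTSeq, DESeq2 and the build mm10, with no versions, and per the labels' protocols polyadenylated RNA was sequenced with a stranded kit after addition of ERCC spike-in RNA. Neither the gene models nor the strand setting used for counting are given in the sources used here. The table holds 0 ERCC rows and 0 rows of mitochondrially encoded genes.

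The tests were run in edgeR 4.0.16 (R 4.3.3), with filterByExpr at a minimum count of 10, TMM scaling, a quasi-likelihood model of 4 group means over the 12 libraries (glmQLFit, then glmQLFTest), and Benjamini-Hochberg adjustment over 12406 genes, with a threshold of 0.05. CPM used TMM-scaled totals, and log2 CPM a prior count of 2. Totals of 14524429 to 21987539 counts gave each of the 76 genes a level well above the filter. Replicates differed by a chi-square of at least 36.6 per degree of freedom over the rows of the table. Genes with high counts weigh most in this measure. Intervals of counting error were not computed for the 76 genes. Some of their groups had a small SD, such as 0.42 CPM at a mean of 37.3 CPM for Mrpl3 in quiescent knockdown cells. Whether the spread of such groups exceeded counting error was not tested. The fit was tested on simulated data with known changes for quiescence in control cells. It called 61% of 100 genes with a true log2 change of 1 in size and 96% of 100 with 2. There were 13 false calls in a fit of 12295 genes. Smaller changes, such as most of those of the 76 genes, and differences between experiments were not simulated.

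The labels give each experiment number (5, 7 or 9) a batch of its own, which pairs libraries across groups. The libraries' residuals about their groups correlated across genes at a mean of 0.53 over 18 pairs with the same number (0.23 at the lowest) and -0.26 over 36 pairs with different numbers. A fit with this number as a replicate block is given beside the results it changes. The other alternatives were DESeq2 size factors, the DESeq2 1.42.0 Wald test, other filters on low counts, only the libraries of a contrast, and each library left out in turn. Fits without an experiment, and the block without quiescent knockdown of experiment 5, were added after seeing the data.

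The members and gene lists were chosen with earlier results of these data known. Genes are named by rule: the 8 largest changes each way for quiescence, the 3 largest for knockdown and the interaction, among genes averaging 2 or more in log2 CPM, those past the threshold, the extremes of level and range, genes of special role, all nuclear regulators and the largest called changes of the other lists. Mrps33 and Mrps26 come in through the interaction, and genes under overlapping annotation are named for that property. Exon lengths, overlaps and 50-base stretches are from GENCODE M21, and start-site windows from RefSeq (GRCm38.p6).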

Additional observations from a re-analysis of the deposited data

How the results depend on the processing

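The median log2 fold change of the 76 genes moved by less than the spread between experiments in all 5 comparisons under every setting run. Its sign, near 0, turned in some fits without a single library, to 0.06 for knockdown in proliferating cells without proliferating control of experiment 9, to -0.04 for knockdown in quiescent cells without quiescent control of experiment 5, and from 0.07 to -0.04 for the interaction without proliferating control of experiment 9. The number of genes past the threshold moved as well, from 4 lower for quiescence in each background and 1 lower for knockdown in quiescent cells. With the replicate block, which pairs libraries of an experiment, 16 were lower for quiescence in control cells, 10 lower and 2 higher in knockdown cells, and 2 lower for knockdown in quiescent cells, and the counts for knockdown in proliferating cells and for the interaction did not change. The change of Ppargc1b with quiescence in control cells then had the other sign (0.15). The DESeq2 Wald test gave 9 lower for quiescence in control cells and 2 lower for knockdown in quiescent cells. For quiescence in knockdown cells it gave 1 higher, and its count of lower genes stayed near 4. Without a filter on low counts 2 were lower for quiescence in control cells, and with only the libraries of that contrast 1 was. The share of all tested genes called was not computed for the DESeq2, unfiltered and single-contrast fits, so these counts have no background beside them.

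Leaving out each library in turn gave 1 to 14 lower for quiescence in control cells, 1 to 5 lower and 0 to 1 higher in knockdown cells, and 0 to 1 lower for knockdown in quiescent cells. Shares over all tested genes were computed only without proliferating control of experiment 5 or of experiment 9, for control cells, and are given above. The 14 came without proliferating control of experiment 5, and the 0 without quiescent control or quiescent knockdown of experiment 5 or 9. Genes with changes near 0 took the other sign in some of these fits. For quiescence in control cells the ranges were -0.12 to 0.22 for Mrpl55, -0.14 to 0.24 for Mrps12, -0.13 to 0.16 for Mrpl43, -0.25 to 0.39 for Mrpl33, -0.14 to 0.073 for Esrra and -1.07 to 3.67 for Ppargc1b. For quiescence in knockdown cells they were -0.047 to 0.24 for Mrps24, -0.082 to 0.19 for Mrpl23, -0.021 to 0.14 for Yy1 and -0.21 to 0.013 for Esrra, and for knockdown in proliferating cells -0.70 to 0.11 for Mrpl32. The causes were not tested.

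Fits of 8 libraries, chosen after seeing the data, have fewer samples, and their shares over all tested genes were not computed. Without experiment 5 they gave 2 lower for quiescence in control cells, 0 for knockdown in quiescent cells, and Mrps24, Mrpl23 and Yy1 at -0.18, -0.15 and -0.031 for quiescence in knockdown cells. Without experiment 7 they gave 0 lower for quiescence in control cells and for knockdown in quiescent cells, and 0 lower and 1 higher for quiescence in knockdown cells. Mrpl55 and Esrra were then at -0.0042 and 0.058 for control cells and at -0.013 and 0.0048 for knockdown cells. Without experiment 9 they gave 0 lower for quiescence in both backgrounds and for knockdown in quiescent cells, with Mrpl33 and Mrpl43 at -0.26 and -0.0020 for control cells. Stag2 in proliferating cells was at -2.38, -2.12 and -2.28 without experiments 5, 7 and 9, with adjusted p above the threshold each time. With the block and without quiescent knockdown of experiment 5, 25 were lower for quiescence in control cells, 26 in knockdown cells and 2 for knockdown in quiescent cells, with Ppargc1b at 0.14 and Mrps24, Mrpl23 and Yy1 at -0.16, -0.16 and -0.0048.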
